A study of Mus musculus with 12 samples.

Results

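Mitochondrial ribosomal proteins are the proteins of the ribosome that works inside mitochondria. The set described here holds the genes named Mrpl (large subunit) or Mrps (small subunit) with a number and without the pseudogene ending -ps, whose deposited FPKM value (fragments per kilobase of transcript, scaled to library size) was over 1 in at least 3 of the 12 libraries. It contained 78 of the 24439 gene names in the files, 49 Mrpl and 29 Mrps genes. The members were thus chosen by their FPKM values, which are given here as a description. Every gene name with this pattern passed, 71 of them in all 12 libraries, so no gene lay just outside the limit. The members nearest to it were Mrps25, over 1 FPKM in 7 libraries (0.391 to 2.22 FPKM over the 12), and Mrpl34, over 1 FPKM in 10 libraries (0.657 to 20.6 FPKM). Mrpl11, Mrpl41, Mrpl55, Mrps11 and Mrps27 passed in 11 libraries. No member passed through 1 group alone.

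The mitochondrial ribosome translates the few mRNAs that mitochondrial DNA encodes, which make core subunits of the respiratory chain and of ATP synthase. Its proteins are all encoded in the nucleus, made in the cytosol and imported, while its rRNAs are transcribed from mitochondrial DNA, so that the particle is put together from the products of both genomes. T cells that enter the cell cycle enlarge their mitochondria, and IL-2 is a growth factor that sustains this growth and division.

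RNA-Seq was performed on CD4 T cell blasts from the spleens of C57BL/6 mice (back-crossed to C57BL/6J by the methods) carrying C42, a transgene with human IL3/CSF2 sequence. All cultures shared this transgene, selection with CD4 microbeads, stimulation with concanavalin A at 2 µg/ml for 40 h and growth in IL-2 at 50 U/ml, for 30 h by the methods and about 2 days by the labels. The cells were then kept for 16 h with IL-2 (TB IL-2) or without it (TB IL-2nil), and part of each was treated for 2 h with PMA at 20 ng/ml and a calcium ionophore at 2 µM, together PMA/I, which stand in for signals of the antigen receptor (TB+ IL-2 and TB+ IL-2nil). Each of these 4 groups had 3 libraries. Dead cells were removed where needed, the age of the mice is not given in the sources used here, and cells were cultured outside the animal, which limits these groups as a model of T cells in tissue. P-values measure the spread between these cultures only, and in such bulk samples fewer cells of a type and less RNA per cell cannot be told apart.

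A pair of libraries went against their labels. Il2, which PMA/I induces, was at 1368 FPKM in the library labelled TB IL-2nil replicate 3 and at 0.290 FPKM in the library labelled TB+ IL-2 replicate 3, against 1095 to 2374 FPKM in the other TB+ libraries and 0 to 1.18 FPKM in the other TB libraries. In the study's supplementary list of differentially expressed genes, the columns of these 2 libraries matched the deposited file of the other label, at 97.2% and 99.05% of values within 0.1%. The other 10 columns matched their own file. The rule for the gene set places the 2 libraries in each other's group. Group names below follow that placement unless it is said otherwise, replicate 3 of TB IL-2nil and of TB+ IL-2 being the exchanged libraries, and results with the labels as given and without both libraries stand beside the main ones. Libraries held 9439 to 11424 genes over 1 TPM (FPKM rescaled so that each library sums to 1e+06, which gives a share of transcripts corrected for length), and short non-coding RNAs took 16.6% to 53.2% of the FPKM sum, the most in TB+ IL-2nil. CD4 T cell markers summed to 848 to 2580 TPM in every library (5 of 6 listed genes were in the files), CD8 T cell markers to 5.41 to 42.8 TPM myeloid markers to at most 4.74 TPM, erythroid markers to 0.106 to 12.3 TPM and NK cell markers to at most 0.295 TPM, with Ncr1 listed at 0 throughout.

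On the TPM scale, which allows levels of different genes to be compared, the members were expressed at like levels for the most part. The median of their mean levels over the 12 libraries was 28.9 TPM with quartiles of 21.3 and 44.8 TPM, against a median of 14.4 TPM for the 12442 genes tested. Mrpl33 had the highest mean at 180.1 TPM (112 to 236 TPM over the libraries), followed by Mrpl30 at 132 TPM, Mrps21 at 109 TPM, Mrpl52 at 93.5 TPM and Mrps16 at 92.6 TPM. The lowest were Mrps25 at 3.51 TPM, Mrpl11, which lies at the base of the stalk where translation factors bind, at 6.72 TPM, Mrpl41 at 8.79 TPM, Mrpl17 at 8.90 TPM and Mrps27 at 9.08 TPM. The mean level of Mrpl33 was 51.2 times that of Mrps25. Longer transcripts tended to have lower levels among the members (Spearman rho of -0.32 over the 76 members matched in the annotation, given as a description across genes that share the same libraries).

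The summed level of the 78 members was 3571 ± 335 TPM in TB IL-2 (SD, n = 3, 3184 to 3787 TPM) and 2456 ± 144 TPM in TB IL-2nil (2293 to 2568 TPM). It was 3203 ± 309 TPM in TB+ IL-2 (2856 to 3449.5 TPM) and 2496 ± 230.5 TPM in TB+ IL-2nil (2356.5 to 2762 TPM). Both groups kept in IL-2 lay above both groups without it, with no overlap. As labelled, the sums of TB IL-2nil and TB+ IL-2 were 2749.5 ± 615 and 2909 ± 371 TPM, and these groups overlapped. In the placement of the rule, TB IL-2 was the group with the highest mean for 49 members. The lowest mean was in TB IL-2nil for 32 members and in TB+ IL-2nil for 40. The order of groups was not counted over all genes tested or with the labels as given, so whether it is particular to the members is not shown. After PMA/I the median log2 difference of all genes was itself below 0, at -0.22 with IL-2 and -0.38 after withdrawal.

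**Figure D1:**
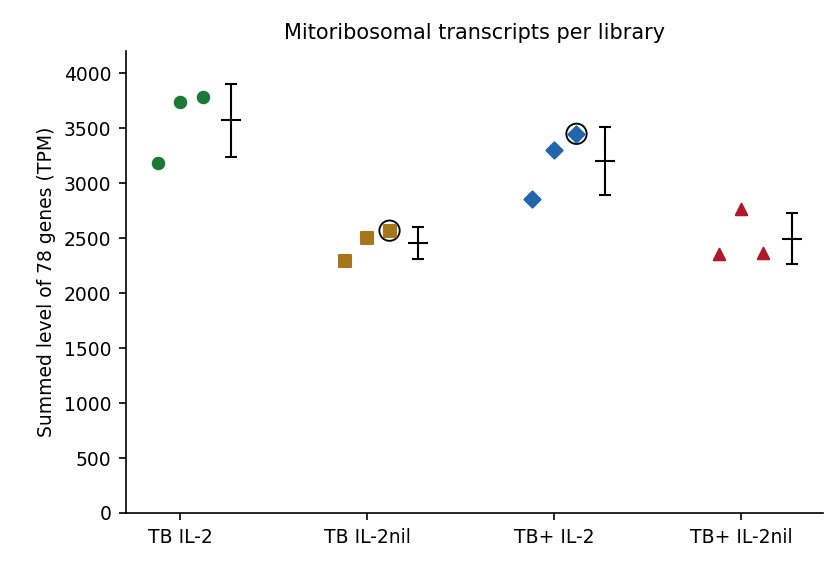
Summed level of the 78 mitochondrial ribosomal protein genes in each library (TPM, vertical axis) by group, with the mean and SD of the 3 libraries. Rings mark the libraries labelled TB IL-2nil replicate 3 and TB+ IL-2 replicate 3, drawn in the group in which the rule places them, and TB IL-2 libraries sit between 3184 and 3787 TPM and TB IL-2nil libraries between 2293 and 2568 TPM.

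The first comparison asked what the 16 h without IL-2 changed in cells that received no PMA/I. Of the 78 members, 40 were higher in TB IL-2 than in TB IL-2nil and 2 were lower (limma on log2(TPM + 1), Benjamini-Hochberg adjusted P under 0.05 over all genes tested). Of all genes tested, 17.3% were higher and 22.3% lower, so that 51.3% of the members were higher against a smaller share of the genes at large. The difference was above 0 for 70 members, against 42.1% of all genes, and its median was 0.54 in log2 (quartiles 0.25 to 0.88), against -0.13 for all genes. By symbol, 23 of 49 Mrpl genes were higher and 2 lower (median 0.53), and 17 of 29 Mrps genes were higher and 0 lower (median 0.59). Groups did not overlap for 52 members that lay above and 2 that lay below, against 22.8% and 30.4% of all genes. Only 2 members, Mrps28 and Mrpl42, were higher by more than the 3-fold limit that the study set and 0 were lower by it, against 4.69% and 2.73% of all genes.

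These calls depended on placement and on scaling. When the labels were taken as given, 71 of 78 differences were above 0 (47.4% of all genes) and their median was 0.38. However, limma then called 0 members in either direction, and called 0.0723% of all genes higher and 0.0482% lower. Without both libraries 29 members were higher and 1 was lower (14.4% and 17.9% of all genes). With TPM not scaled further, 9 were higher (11.5%, close to the 9.81% of all genes) and 1 lower (11.5% of all genes), with a member median of 0.46 against -0.19. Leaving out TB IL-2 replicate 2 or replicate 3 left 26 and 24 higher, and leaving out TB IL-2 replicate 2 or TB IL-2nil replicate 1 left 1 lower. Shares over all genes are not set beside these leave-out counts, so how far genes at large moved with them is not shown. The B cell markers (4 of 5 listed genes in the files) summed to 6.71 to 14.0 TPM in TB IL-2 and 24.4 to 32.4 TPM in TB IL-2nil, and the CD4 T cell markers to 888 to 1575 TPM and 1971 to 2580 TPM. The part of these shifts in the result was not tested.

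**Figure D2:**
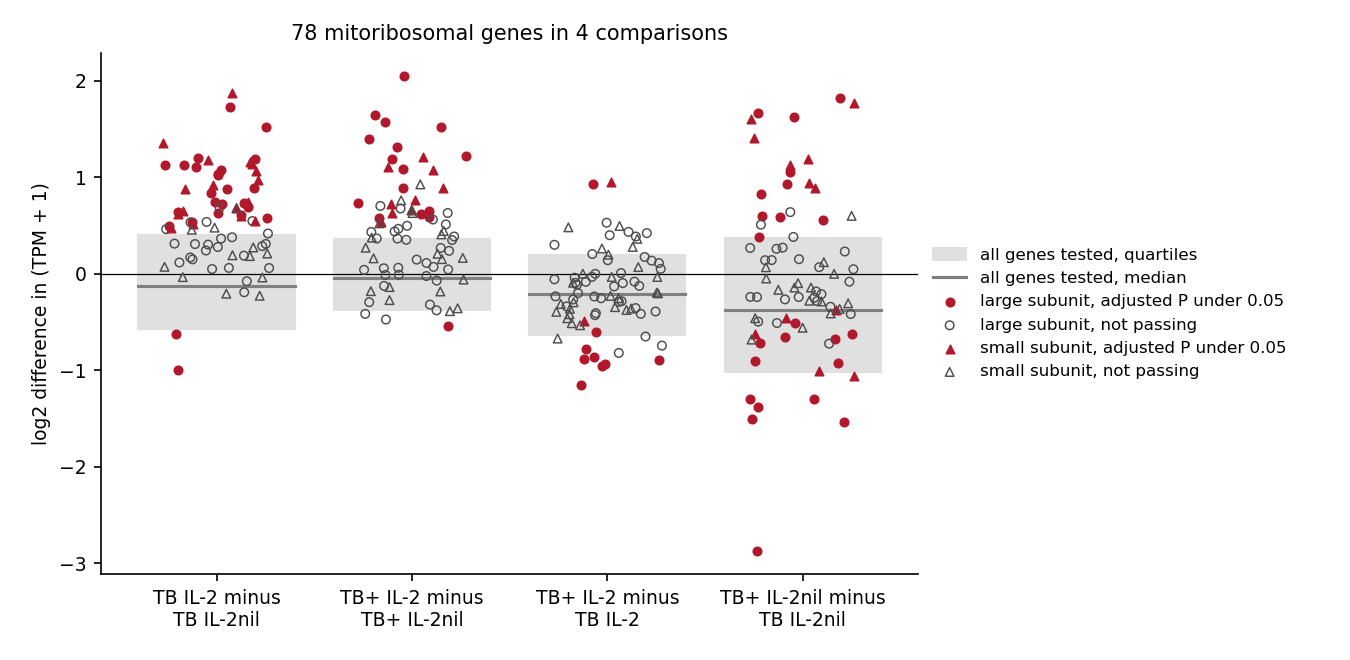
Log2 differences of the 78 members in each of the 4 comparisons (vertical axis, log2(TPM + 1)). Mrpl genes (large subunit in the key) are circles and Mrps genes (small subunit in the key) triangles, filled where the adjusted P was under 0.05. A line and a grey box show the median and quartiles of all genes tested. In TB IL-2 against TB IL-2nil 70 points lie above 0, and after PMA/I in cells without IL-2 they spread furthest to both sides.

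Among the Mrps genes Mrps28 (chr3:8802146-8923918, mm9, minus strand) differed most. It was at 27.1, 39.2 and 34.4 TPM in TB IL-2 and at 11.0, 8.15 and 6.45 TPM in TB IL-2nil. All TB IL-2 libraries lay above all TB IL-2nil libraries, and the difference was 1.87 in log2 (SE 0.28, adjusted P = 0.00059). Mrps22, a protein found only in mitochondrial ribosomes, was at 23.4, 38.3 and 30.3 TPM with IL-2 and at 8.75, 12.5 and 12.7 TPM without it. Again the groups were apart, by 1.35 (SE 0.26, adjusted P = 0.0023). Mrps15 and Mrps10, which have bacterial counterparts, were higher by 1.15 (SE 0.35, adjusted P = 0.022) and 1.13 (SE 0.27, adjusted P = 0.0075). Mrps36 was higher by 1.17 (SE 0.35, adjusted P = 0.021), although its product is now also known as a subunit of the 2-oxoglutarate dehydrogenase complex.

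The 3 related proteins Mrps18a, Mrps18b and Mrps18c descend from 1 bacterial protein, and the product of Mrps18a sits in the large subunit despite its name. Mrps18c was at 118, 125 and 113 TPM in TB IL-2 and at 56.5, 51.1 and 74.1 TPM in TB IL-2nil, a difference of 0.97 (SE 0.22, adjusted P = 0.0057). Mrps18b was at 34.8, 58.4 and 43.9 TPM and at 22.6, 21.2 and 19.1 TPM, a difference of 1.06 (SE 0.21, adjusted P = 0.0027). Mrps18a had the smallest difference of them at 0.54 (SE 0.19, adjusted P = 0.038), a call that passed in 13 of 23 alternative settings (adjusted P of 0.011 to 0.59). Groups did not overlap in any of the 3 genes. Mrps12, part of the decoding centre, was higher by 0.74 (SE 0.14, adjusted P = 0.0025). Mrps11 (0.68, SE 0.32), Mrps21 (0.45, SE 0.26) and Mrps30 (0.18, SE 0.22), whose product also belongs to the large subunit, did not pass, with adjusted P of 0.11, 0.18 and 0.54.

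Among the Mrpl genes Mrpl42 (chr10:94943440-94964561, mm9, minus strand) was at 75.4, 99.5 and 101 TPM in TB IL-2 and at 26.0, 21.2 and 35.5 TPM in TB IL-2nil. The difference was 1.72 (SE 0.25, adjusted P = 0.00051), with groups well apart. Mrpl12 (chr11:120345927-120350379, mm9, plus strand), the stalk protein that recruits translation factors and is also known to bind the mitochondrial RNA polymerase, was at 80.4, 113 and 94.4 TPM and at 34.4, 36.0 and 27.7 TPM. It was higher with IL-2 by 1.52 (SE 0.21, adjusted P = 0.00039). Mrpl28, at 46.1, 43.6 and 45.4 TPM against 21.2, 21.7 and 17.5 TPM, had the smallest SE and adjusted P of the members named for this comparison (1.13, SE 0.14, adjusted P = 0.00026). Mrpl20 and Mrpl51 were higher by 1.19 (SE 0.23, adjusted P = 0.0024) and 1.18 (SE 0.21, adjusted P = 0.0014). Mrpl37 (0.36, SE 0.17, adjusted P = 0.12) and Mrpl41 (0.31, SE 0.23, adjusted P = 0.31) did not pass. As labelled, the 40 members higher with IL-2 had adjusted P of 0.16 to 0.79, with Mrps28 at 1.03, Mrpl42 at 1.35 and Mrpl12 at 0.94.

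The 2 members that fell with IL-2 were Mrpl9 and Mrpl24, whose bacterial counterparts lie at the surface of the large subunit. Mrpl9 was at 42.0, 43.7 and 58.5 TPM in TB IL-2 and at 61.0, 122 and 119.8 TPM in TB IL-2nil, a difference of -1.001 (SE 0.26, adjusted P = 0.012), which did not pass without both libraries (-0.85, adjusted P = 0.057). Mrpl24 was at 57.4, 47.1 and 54.3 TPM and at 100.1, 79.2 and 69.5 TPM, a difference of -0.63 (SE 0.18, adjusted P = 0.017). It shares 594 of its 2255 exonic bases with Rrnad1 on the other strand, a gene at 4.47 to 6.55 TPM in TB IL-2 and 6.96 to 11.9 TPM in TB IL-2nil, and the strand setting of the quantification is not given in the sources used here, so reads of the pair cannot be told apart.

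**Figure D3:**
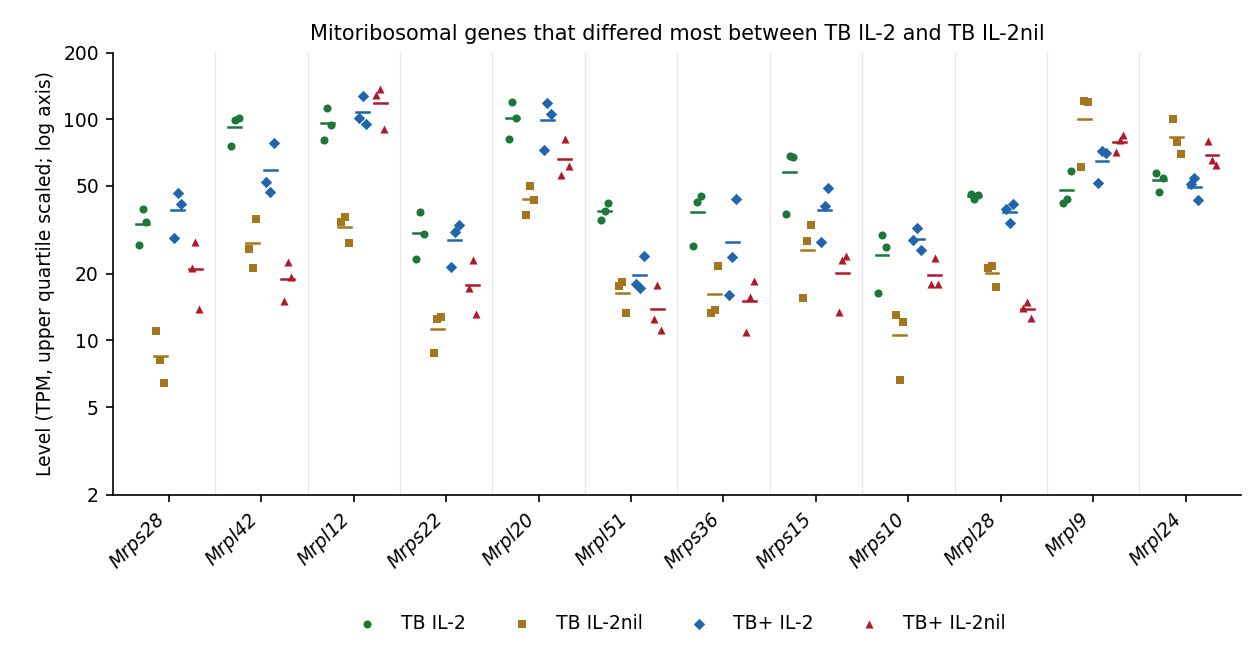
Level of members named for the comparison of TB IL-2 with TB IL-2nil (TPM, log axis) in each of the 3 libraries of the 4 groups, with lines at the group means. Points of TB IL-2 lie above those of TB IL-2nil for Mrps28, Mrpl42 and Mrpl12 and below them for Mrpl9 and Mrpl24.

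Some promoter features, which the rule did not use, were more frequent in this family than among tested genes, though only a minority of members carried each. In mm9 gene models, 28 of the 76 members matched in the annotation had the start of a gene on the opposite strand within 1000 bp of their own (36.8%), against 16.7% of 10459 protein-coding genes tested. Such neighbours include Tcp1 for Mrpl18, Sars2, the mitochondrial seryl-tRNA synthetase, for Mrps12, the Twinkle helicase gene for Mrpl43, the respiratory chain gene Ndufb5 for Mrpl47, and the pair Mrpl46 and Mrps11 with each other. RefSeq promoter windows (GRCm38.p6, 250 bases before to 50 after the start) were available for 69 members in 75 windows. A YY1-type motif (AAGATGGC, on either strand) lay in 16% of these windows, against 4.52% of 12005 windows of tested genes and 2.75% of all 32851 windows. An ETS-type motif (CCGGAAGT) lay in 16%, 8.25% and 3.89%, an NRF1-type motif (GCGCA directly followed by its complement TGCGC) in 4%, 2.09% and 0.971%, and an E-box (CACGTG) in 9.33%, 10.1% and 7.15%. In the 37 windows of 35 members that were higher with IL-2, ETS letters lay in 21.6%, YY1 letters in 24.3% and E-box letters in 16.2%, and NRF1 letters in 0 windows. Several overlapping windows of Mrpl2 hold an E-box, which raises the share of windows. Counted by gene, the E-box lay in 4 of these 35 members (11.4%) and in 5 of the 69 (7.25%), against 11.9% of tested genes. These matches are descriptions of letters in the windows, and in Mrps18c the E-box and ETS letters adjoin without overlap.

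To show what promoters with such a motif look like, 100 bases are given for members with contrasting behaviour, 5′ to 3′ on the strand of the gene (RefSeq, GRCm38.p6), with the matched motif in capitals. Each stretch was chosen to hold a motif, so they do not stand for the members as a whole. Mrps22 (chr9:98601680-98601779, minus strand), Mrpl51 (chr6:125192100-125192199, plus strand), Mrpl20 (chr4:155802778-155802877, plus strand) and Mrps18c (chr5:100798559-100798658, plus strand) were higher with IL-2, Mrpl27 (chr11:94653691-94653790, plus strand) was lower after PMA/I, and Mrpl9 (chr3:94443236-94443335, plus strand) was lower with IL-2. All end at the base before the start except that of Mrps18c, which ends 101 bases before it. Capitals mark the ETS motif in Mrps22, Mrpl51 and Mrpl27, the E-box in Mrpl20, the E-box followed by the ETS motif of the other strand in Mrps18c and the NRF1 motif in Mrpl9.
Mrps22: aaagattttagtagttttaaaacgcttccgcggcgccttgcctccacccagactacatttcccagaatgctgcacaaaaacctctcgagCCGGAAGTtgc
Mrpl51: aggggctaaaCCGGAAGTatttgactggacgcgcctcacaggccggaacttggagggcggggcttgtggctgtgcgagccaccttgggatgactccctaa
Mrpl20: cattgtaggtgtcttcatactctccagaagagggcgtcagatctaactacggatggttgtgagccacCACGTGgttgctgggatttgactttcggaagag
Mrps18c: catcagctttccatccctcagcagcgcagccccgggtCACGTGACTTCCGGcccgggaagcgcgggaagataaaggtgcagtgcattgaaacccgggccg
Mrpl27: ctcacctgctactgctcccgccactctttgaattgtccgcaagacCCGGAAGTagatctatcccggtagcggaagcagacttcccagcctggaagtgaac
Mrpl9: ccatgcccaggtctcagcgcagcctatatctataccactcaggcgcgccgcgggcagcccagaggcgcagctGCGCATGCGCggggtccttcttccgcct

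The next pair of comparisons asked what 2 h of PMA/I changed, in cells kept in IL-2 and in cells after its withdrawal. With IL-2, 2 members were higher in TB+ IL-2 than in TB IL-2 and 9 were lower, against 11.8% and 23.3% of all genes tested, and the median difference of -0.20 was close to the -0.22 of all genes. After withdrawal 17 members were higher and 18 lower in TB+ IL-2nil than in TB IL-2nil, against 20.1% and 41.1% of all genes. Of these, 5 members rose and 1 fell by more than 3-fold, against 7.78% and 10.7%. The members' median was -0.18, against -0.38 for all genes, and their quartiles were -0.50 and 0.38, against -1.02 and 0.37. The share that rose, 21.8%, was thus close to that of all genes, and the share that fell, 23.1%, was smaller. Mrpl genes were higher in 10 and lower in 13 of 49 cases, and Mrps genes in 7 and 5 of 29. Groups did not overlap for 19 members above and 21 below (21.8% and 42.3% of all genes) after withdrawal, and for 4 above and 20 below (16.6% and 35.1%) with IL-2.

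With the labels as given, limma called 0 members in the cells kept in IL-2 (0.241% of all genes higher and 0.257% lower). After withdrawal it called 0 higher and 6 lower (1.92% and 3.46% of all genes), namely Mrpl14, Mrpl18, Mrpl27, Mrpl34, Mrpl49 and Mrps21. Without both libraries it called 2 higher and 12 lower with IL-2 (11.1% and 19.8%), and 13 and 12 after withdrawal (17.8% and 35.9%). Scaling moved the split after withdrawal. Without scaling of TPM 6 members were higher and 33 lower, against 10.5% and 49.1% of all genes, with the median of all genes at -0.78 in place of -0.38. With quantile normalization 23 were higher and 13 lower, against 23.4% and 30.4% of all genes. With the replicate number as a block 5 members were higher and 18 lower in the cells kept in IL-2, with no share over all genes set beside these counts. Leaving out TB IL-2 replicate 3, TB+ IL-2 replicate 1 or TB+ IL-2 replicate 2 left 5, 5 and 4 lower there and 1 higher in each case, TB IL-2 replicate 1 left 1 and replicate 2 left 4 higher, and after withdrawal TB+ IL-2nil replicate 2 left 11 higher and replicate 1 left 11 lower. These leave-out counts also have no share over all genes set beside them. The B cell markers summed to 2.48 to 3.39 TPM in TB+ IL-2 and 4.35 to 11.98 TPM in TB+ IL-2nil, each below its own untreated group, and short non-coding RNAs took 33% to 53.2% of the FPKM sum in TB+ IL-2nil and 21.3% to 37.5% in TB IL-2nil, and their part in these results was not tested.

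Of the members that rose after withdrawal, Mrpl12 had the largest difference. It was at 34.4, 36.0 and 27.7 TPM in TB IL-2nil and at 129, 137 and 90.2 TPM in TB+ IL-2nil, a difference of 1.82 (SE 0.21, adjusted P = 3.07e-05). Mrpl17, a protein at the rim of the exit tunnel, was at 4.13, 4.32 and 3.45 TPM and at 14.7, 15.7 and 13.7 TPM, a difference of 1.66 (SE 0.16, adjusted P = 9.61e-06). All 3 treated libraries lay above all untreated ones for both genes. Mrps2 rose by 1.77 (SE 0.23, adjusted P = 7.22e-05) and Mrps18b, at 78.6, 67.8 and 53.2 TPM after PMA/I, by 1.61 (SE 0.21, adjusted P = 6.95e-05). The long noncoding RNA Gm16279 overlaps 638 of the 2089 exonic bases of Mrps18b on the other strand, and Gm16755 overlaps 200 of the 1532 exonic bases of Mrpl12. Without both libraries these 4 differences were 1.70, 1.58, 1.68 and 1.54, all with adjusted P of at most 0.001, and with the labels as given they were 1.24, 1.27, 1.26 and 1.11, with adjusted P of 0.070 to 0.150.

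Mrpl50 and Mrps6 were the 2 members that rose under both conditions. Mrpl50, specific to mitochondria, was at 15.6, 18.5 and 13.5 TPM in TB IL-2 and at 28.2, 37.3 and 27.8 TPM in TB+ IL-2, a difference of 0.93 (SE 0.20, adjusted P = 0.0053). In cells without IL-2 it went from 14.4, 11.4 and 10.2 TPM to 37.5, 48.3 and 32.2 TPM, a difference of 1.63 (SE 0.20, adjusted P = 5.7e-05). Mrps6, the counterpart of the bacterial protein that pairs with the Mrps18 family, was higher by 0.95 with IL-2 (SE 0.29, adjusted P = 0.026) and by 1.41 after withdrawal (SE 0.29, adjusted P = 0.0015). Its values went from 16.4, 21.3 and 16.9 TPM to 73.3, 52.9 and 31.4 TPM in the latter. Mrps6 shares 696 of its 1590 exonic bases with Slc5a3, a gene for an inositol transporter on the same strand, which went from 4.61, 4.38 and 2.45 TPM to 55.1, 44.7 and 18.5 TPM. The rise given for Mrps6 is therefore uncertain, since the sources used here do not say how reads of shared exons were divided.

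Of the members that fell after withdrawal, Mrpl34 (chr8:73988825-73989651, mm9, plus strand) had the largest difference. It was at 45.3, 37.9 and 31.9 TPM in TB IL-2nil and at 3.15, 7.18 and 3.46 TPM in TB+ IL-2nil. The fall was -2.87 (SE 0.30, adjusted P = 1.88e-05), and it passed with the labels as given too (-2.87, adjusted P = 0.012). Mrpl49, specific to mitochondria, was at 15.3, 17.3 and 16.8 TPM before and at 5.32, 4.93 and 4.77 TPM after PMA/I (-1.54, SE 0.16, adjusted P = 1.59e-05). Mrpl27, which in bacteria reaches the peptidyl transferase centre, fell by 1.51 (SE 0.24, adjusted P = 0.00030), and its promoter is printed above. Mrpl18 fell by 1.297 (SE 0.24, adjusted P = 0.00068), Mrpl14 by 1.296 (SE 0.24, adjusted P = 0.00076) and Mrpl58, a hydrolase that frees stalled mitochondrial ribosomes, by 1.38 (SE 0.31, adjusted P = 0.0024).

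**Figure D4:**
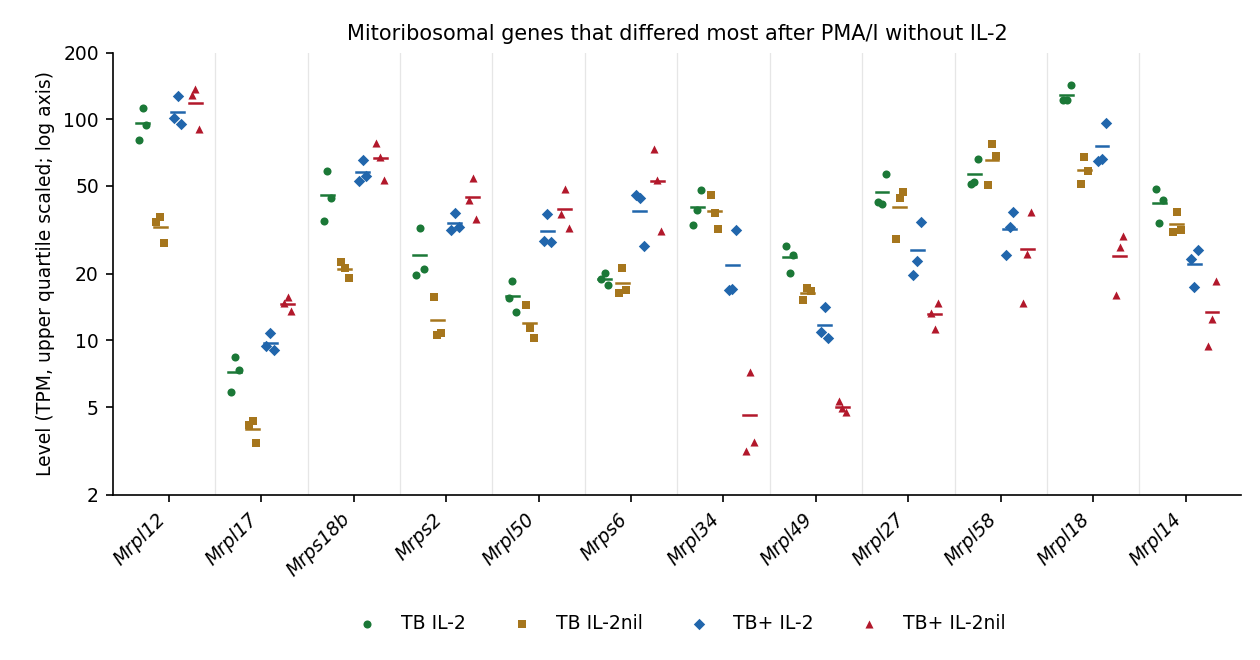
Level of members named for the comparison of TB+ IL-2nil with TB IL-2nil (TPM, log axis) in the 3 libraries of each of the 4 groups, with lines at the group means. Mrpl12, Mrpl17, Mrps2 and Mrps18b are higher in TB+ IL-2nil than in TB IL-2nil, and Mrpl34, Mrpl49 and Mrpl27 are lower.

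In cells kept in IL-2 the fall was led by Mrpl41, a protein specific to mitochondria, at 13.3, 13.8 and 13.2 TPM in TB IL-2 and at 5.03, 5.10 and 6.32 TPM in TB+ IL-2 (-1.16, SE 0.23, adjusted P = 0.0033). Mrpl49 (-0.96, SE 0.16, adjusted P = 0.0011), Mrpl51 (-0.93, SE 0.21, adjusted P = 0.0053), Mrpl14 (-0.90, SE 0.24, adjusted P = 0.014), Mrpl34 (-0.89, SE 0.30, adjusted P = 0.043) and Mrpl27 (-0.87, SE 0.24, adjusted P = 0.018) followed. Groups were apart for each of these genes, but the call of Mrpl34 passed in 11 of 23 alternative settings (adjusted P of 0.013 to 0.27). Of the 9 members that fell with IL-2, 8 also fell after withdrawal, which is 88.9% of the first list and 44.4% of the 18 in the second. The 2 comparisons share no library, and over all genes tested the same shares were 90.3% and 51.3%. Across the 78 members the differences of the 2 comparisons had a Pearson r of 0.83, the same as over all genes tested (0.83), with a larger spread after withdrawal (SD 0.84 against 0.42), a description across genes measured in the same libraries.

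**Figure D5:**
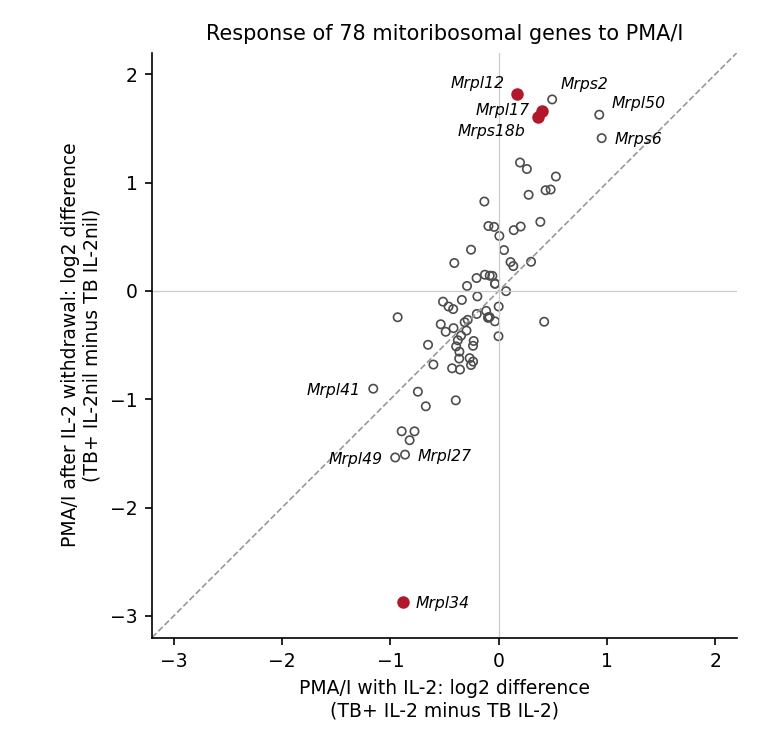
Log2 difference after PMA/I in cells kept in IL-2 (horizontal axis) against that in cells after IL-2 withdrawal (vertical axis), 1 point per member, filled for the 4 members that passed the interaction term, with a dashed line of equal differences. Mrpl34 lies lowest at -2.87 on the vertical axis, and Mrpl12 highest at 1.82.

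The fourth comparison asked what IL-2 changed in PMA/I-treated cells. In TB+ IL-2, 24 members were higher than in TB+ IL-2nil and 1 was lower, against 12.9% and 8.4% of all genes tested. The difference was above 0 for 60 members (46.3% of all genes), with a median of 0.42 (quartiles 0.05 and 0.69) against -0.04 for all genes. Mrpl genes made up 15 of the 24 and the 1 lower, and Mrps genes 9. Groups did not overlap for 31 members above and 4 below (18.9% and 18.3% of all genes). With the labels as given only Mrpl34 passed (adjusted P = 0.046, 0.185% of all genes higher and 0.0321% lower), and without both libraries 10 were higher and 0 lower (7.08% and 2.63%). Leaving out TB+ IL-2 replicate 2, TB+ IL-2 replicate 3 or TB+ IL-2nil replicate 1 left 15, 10 and 13 higher, and 0 were lower without TB+ IL-2 replicate 1 or 3 or TB+ IL-2nil replicate 1 or 2. No share over all genes is set beside these leave-out counts. With the replicate number as a block 3 members were lower, with no share over all genes set beside this count. Short non-coding RNAs took 22.2% to 27.5% of the FPKM sum in TB+ IL-2 and 33% to 53.2% in TB+ IL-2nil, the B cell markers stood at the sums given above, and their part in this result was not tested.

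Mrpl34 was at 16.9, 17.1 and 31.8 TPM in TB+ IL-2, against the 3.15, 7.18 and 3.46 TPM of TB+ IL-2nil (2.04, SE 0.30, adjusted P = 0.0013). Mrpl18 was at 65.1, 66.4 and 95.9 TPM and at 16.0, 26.4 and 29.7 TPM (1.64, SE 0.24, adjusted P = 0.0011). Mrpl13 was at 88.4, 64.1 and 75.6 TPM and at 19.0, 27.4 and 31.9 TPM (1.52, SE 0.22, adjusted P = 0.0011). Every treated library with IL-2 lay above every one without it for these 3 genes. Mrpl42 was higher by 1.57 (SE 0.25, adjusted P = 0.0019), Mrpl28 by 1.40 (SE 0.14, adjusted P = 0.00018) and Mrpl55 by 1.31 (SE 0.27, adjusted P = 0.0070). The member that was lower with IL-2 was Mrpl17, at 9.40, 10.8 and 9.02 TPM in TB+ IL-2 and 14.7, 15.7 and 13.7 TPM in TB+ IL-2nil (-0.55, SE 0.16, adjusted P = 0.032), a call that passed in 14 of 23 alternative settings (adjusted P of 0.011 to 0.76). Of the members higher with IL-2, 18 were so both in resting and in PMA/I-treated cells, comparisons without a common library, which is 45% of the 40 and 75% of the 24, against 49.1% and 66.2% over all genes tested. They include Mrpl13, Mrpl18, Mrpl28, Mrpl42, Mrpl55, Mrps12, Mrps18c and Mrps28.

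The PMA/I response itself differed with IL-2 for 4 members by the interaction term (1 higher and 3 lower, against 1.57% and 2.66% of all genes tested). Mrpl12 was at 95.8 TPM on average in TB IL-2 and 108 TPM in TB+ IL-2, but at 32.7 and 119 TPM in the groups without IL-2, an interaction of -1.65 (SE 0.29, adjusted P = 0.020). Mrpl17 (-1.26, SE 0.22, adjusted P = 0.020) and Mrps18b (-1.25, SE 0.29, adjusted P = 0.042) had the same order of groups, with the lowest mean in TB IL-2nil and the highest in TB+ IL-2nil. Mrpl34 had the reverse sign (1.99, SE 0.43, adjusted P = 0.032), since it fell further without IL-2. The exchange of the 2 libraries leaves these differences as they are, because both enter the interaction with the same sign. Their spread grew with the labels as given, however, to an adjusted P of 0.91 for each gene (0 members called, with 0% of all genes called). Without both libraries 0 members passed, with 0.0243% of all genes higher and 0.00809% lower (adjusted P of 0.089 for Mrpl12, Mrpl17 and Mrpl34 and 0.15 for Mrps18b). With the replicate number as a block 6 members were lower, with no share over all genes set beside this count. When 1 library was left out at a time, Mrpl34 passed only without TB IL-2 replicate 1, TB IL-2nil replicate 3 or TB+ IL-2nil replicate 2 or 3, and the lower count was 0 without TB IL-2 replicate 2 or 3 or TB+ IL-2 replicate 3, 1 without TB+ IL-2nil replicate 1 and 5 without TB+ IL-2nil replicate 3. The share of all genes called in these leave-out fits is not shown.

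Other genes of mitochondrial translation had calls in both directions, to be read beside the 17.3% higher and 22.3% lower of all genes tested. In TB IL-2 against TB IL-2nil, 4 of 14 translation factors were higher and 3 lower, among them Slirp (92.6 ± 17 and 41.9 ± 3.3 TPM, SD, n = 3), which with Lrpprc stabilises mitochondrial mRNAs (1.11, adjusted P = 0.0015), and Tsfm, an elongation factor (0.98, adjusted P = 0.0041). The initiation factor gene Mtif3 was lower (-0.61, adjusted P = 0.022). Of 26 tested genes of mitoribosome assembly and rRNA maturation 2 were higher and 5 lower, and Tfb1m, the methyltransferase of the small subunit rRNA, was higher with IL-2 (1.22, adjusted P = 0.00064) and fell after PMA/I in cells kept in IL-2 (-1.21, adjusted P = 0.00064). Of 11 tested genes that transcribe or copy mitochondrial DNA 1 was higher and 2 lower. Of 5 tested mitoribosomal proteins with other symbols, Chchd1 was higher (1.02, adjusted P = 0.0046). None of the genes named here passed in TB IL-2 against TB IL-2nil with the labels as given.

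For PMA/I after withdrawal the same lists were counted. Of the assembly genes 5 rose and 12 fell, of the translation factors 3 and 8, of 20 mitochondrial tRNA synthetases 2 and 10, and of the genes for mitochondrial DNA 3 and 5, set beside 20.1% and 41.1% of all genes. These splits depended on the scaling, since with quantile normalization the counts were 6 and 6, 3 and 4, 4 and 3, and 4 and 1. Of all genes, 23.4% rose and 30.4% fell under that normalization, so the share that fell was smaller for genes at large too. Enzymes of rRNA methylation went opposite ways, with Mrm3 rising by 2.28 (3.64 ± 0.88 to 21.5 ± 3.7 TPM, adjusted P = 1.80e-05) and Mrm2 falling by 2.22 (5.74 ± 1.6 to 0.424 ± 0.077 TPM, adjusted P = 3.52e-05). Guf1, an elongation factor that acts on stalled ribosomes, fell by 2.00 (10.5 ± 0.66 to 1.91 ± 0.51 TPM, adjusted P = 3.16e-06). Ptcd3, a small subunit protein with another symbol, rose by 1.14 (adjusted P = 0.00028), and Tfam, which packages mitochondrial DNA, fell by 0.91 (adjusted P = 0.0017). As labelled, Guf1 alone of these 5 genes passed (-1.64, adjusted P = 0.046).

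Large gene groups set the members in context. Nuclear-encoded subunits of the respiratory chain and ATP synthase, most of whose complexes take in products of the mitochondrial ribosome, made up 80 genes tested. In TB IL-2 against TB IL-2nil 46 were higher and 2 lower (57.5% higher, median 0.63), against 17.3% and 22.3% of all genes. In TB+ IL-2 against TB+ IL-2nil 48 were higher and 3 lower (60% and 3.75%, median 0.73), against 12.9% and 8.4% of all genes and their median of -0.04. As labelled, 0 of these 80 genes passed in either comparison, with medians of 0.46 and 0.49. Of 82 cytosolic ribosomal protein genes tested, 4 were higher and 8 lower in TB IL-2 than in TB IL-2nil (17.3% and 22.3% of all genes), with a median of -0.17 that was close to the -0.13 of all genes. The medians of the mitochondrial and the cytosolic list were 0.38 and -0.16 with the labels as given, 0.53 and -0.14 without both libraries, 0.46 and -0.25 without scaling of TPM and 0.62 and -0.28 with quantile normalization. After PMA/I in cells without IL-2, 12 cytosolic ribosomal protein genes rose and 0 fell (14.6% and 0%, against 20.1% and 41.1% of all genes). Their median of 0.27 turned to -0.28 without scaling and to -0.21 with quantile normalization. The difference between these groups of genes was not tested.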

How the data were processed

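RNA-Seq libraries were rRNA-depleted and strand-specific. Reads were trimmed with Trimmomatic 0.32, aligned to mm9 with HISAT2 2.1.0 and quantified on RefSeq gene models with StringTie 1.3.3, as given in the methods and the submitters' processing notes. The values the authors deposited are FPKM values for 24439 gene names per library, which sum to 193815 to 420487. They are neither counts nor normalized between libraries, so no counting interval could be given. The depth of the libraries relative to each other, from steps between low values, ranged from 0.409 to 1.26, and lower depth gives less precise low values.

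FPKM values were rescaled to TPM (a sum of 1e+06 per library). A filter of more than 1 TPM in any 1 library left 12442 genes, all 78 members among them, and libraries were scaled to a common 75th percentile. A linear model with 4 group means was then fitted to log2(TPM + 1) with limma 3.58.1 under R 4.3.3 (12 libraries, 8 residual degrees of freedom), with Benjamini-Hochberg adjustment over all genes tested, and called at an adjusted P under 0.05. The design had assumed TPM files, and the deposited unit was FPKM. Log2 differences are on the log2(TPM + 1) scale, which understates changes of low genes. The fit was tested on simulated data in which libraries varied independently, unlike libraries with the same replicate number here. Python 3.11.15, numpy 2.4.6, pandas 2.3.3 and matplotlib 3.10.9 were used for the rest.

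The members and gene lists were chosen with earlier results of these data known. Named members were up to 10 higher and 6 lower in TB IL-2 against TB IL-2nil and up to 6 in each direction elsewhere, by size among calls whose groups did not overlap, up to 6 by adjusted P for the interaction, the 5 highest and 5 lowest in level, those nearest to the FPKM limit and a preset list that included the Mrps18 genes. From the other lists up to 3 per direction were eligible, and those named are a choice from these. A gene of these lists is not reported here. Others named as partners, neighbours or examples fell outside the rule and were chosen after their values were seen.

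In the placement used, libraries with the same replicate number deviated together from their group means (18 correlations of 0.101 to 0.531, against -0.416 to 0.171 for 36 pairs of different numbers). The numbers come from the labels, which do not say what they share. Gene models were those of GENCODE M1 (mm9), which matched 76 members, and promoters those of RefSeq (GRCm38.p6), read without conversion between builds. Alternatives were other scalings, pseudocounts, filters and designs, and leaving out each library.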

Additional observations from a re-analysis of the deposited data

Results flagged for a closer look

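The response to PMA/I differed between cells kept in IL-2 and cells after its withdrawal for 4 members, by the interaction term in limma (1 higher and 3 lower of 78, against 1.57% and 2.66% of all genes tested, a like share). Mrpl12 had an interaction of -1.65 in log2 (SE 0.29, adjusted P = 0.020). In the other settings tried its value lay between -1.83 and -1.18, and its adjusted P was under 0.05 in 15 of 22. The value for Mrpl17 was -1.26 (SE 0.22, adjusted P = 0.020), with a range of -1.42 to -0.83 and 16 of 22 settings under 0.05. For Mrpl34 it was 1.99 (SE 0.43, adjusted P = 0.032), with a range of 1.70 to 2.36 and 10 of 22 settings. Mrps18b had -1.25 (SE 0.29, adjusted P = 0.042), with a range of -1.42 to -0.78 and 8 of 22 settings. Of the 4, 0 passed with the labels as given.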

How the results depend on the processing

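Counts of members are given as higher and lower. With the labels as given the 4 comparisons, in the order of the report, had 0 and 0, 0 and 0, 0 and 6, and 1 and 0, and the interaction 0 and 0. Without both exchanged libraries TB IL-2 against TB IL-2nil had 1 lower, TB+ IL-2 against TB+ IL-2nil 10 and 0, and the interaction 0 and 0. Without scaling of TPM the counts were 9 and 1, 1 and 3, 6 and 33, and 25 and 0, and 0 and 0 for the interaction. The shares of all genes were 9.81% and 11.5%, 7.51% and 12.1%, 10.5% and 49.1%, 11.5% and 0.466%, and 0% and 0.00804% for the interaction. Medians over all genes were then -0.19, -0.29, -0.78, 0.23 and 0.51 in place of -0.13, -0.22, -0.38, -0.04 and 0.16. Quantile normalization left 0 lower in TB+ IL-2 against TB+ IL-2nil (8.41% of all genes) and 5 lower for the interaction (3.79% of all genes), and a pseudocount of 0.1 left 0 higher for the interaction. The lower count of TB+ IL-2 against TB+ IL-2nil was 2 in place of 1 with trend, with no filter and with a filter of 1 TPM in at least 3 libraries. With the libraries of a comparison alone, TB IL-2 against TB IL-2nil had 1 lower and TB+ IL-2 against TB+ IL-2nil 10 and 0. Apart from the construction of each setting, the cause of these changes was not tested. With the replicate number as a block, TB+ IL-2 against TB IL-2 had 5 higher and 18 lower, TB+ IL-2 against TB+ IL-2nil 3 lower and the interaction 6 lower. The block ended no call of a named member and moved no other count by over 1.5 times. Whether the block moved the members more than genes at large is not shown here. Leaving out 1 library gave 24 to 41 higher and 1 to 2 lower, 1 to 4 and 4 to 12, 11 to 17 and 11 to 24, and 10 to 28 and 0 to 1 in the 4 comparisons, and 0 to 1 and 0 to 5 for the interaction. For these counts, and those with another pseudocount, filter, trend or the libraries of a comparison alone, shares over all genes are not shown. Whether members moved more than genes at large in these settings is therefore not shown either. Of 52 values of named members 0 reversed, and 41 that had passed or lain on their side of the limit no longer did with the labels as given, 7 without both libraries and 15 without scaling. Values rest on 3 libraries per group and on FPKM without counts, so that the precision of low members such as Mrps25 is not known.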
